A study of Mus musculus with 63 samples.

Results

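Axon guidance ligands and receptors were followed as 1 gene group through every comparison of a mouse slice culture study. Members were all protein-coding genes of the deposited annotation whose symbols belong to the semaphorins, plexins, ephrins, Eph receptors, Slits, Robo receptors, netrins, Unc5 receptors, neuropilins and Dcc. This rule reads names only and uses no measured value, and it found 70 of 21832 protein-coding symbols. The group holds 35 ligands and 35 receptors. The ligands are 13 membrane semaphorins, 7 secreted semaphorins, 5 ephrin-A genes, 3 ephrin-B genes, 3 Slits and 4 netrins. The receptors are 9 plexins, 9 EphA and 5 EphB receptors, 4 Robo receptors, 2 neuropilins, and 6 genes of the Unc5 and Dcc set. Unc5cl, which the rule takes by its symbol, is Unc5-like in sequence but is not known as a netrin receptor.

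The data are RNA-seq read counts from 63 libraries of mouse entorhino-hippocampal slice cultures, which were prepared at postnatal days 3 to 5 from pups of either sex and kept for at least 18 days in vitro. Synpo+/+ cultures came from C57BL/6J mice, and Synpo-/- cultures came from the backcrossed line B6.129-Synpotm1Mndl/Dllr, which lacks synaptopodin, an actin-binding protein of dendritic spines. In the lesion groups the entorhinal cortex was cut off with a scalpel (entorhinal cortex lesion, ECL), and tissue was taken 3 days later. According to the study, the cut partly denervates dentate granule cells as well as CA3 pyramidal cells. Controls were not lesioned. Of the libraries, 39 were regional, each made from the dentate gyrus (DG) or area CA3 of a culture, with 4 Synpo+/+ control, 7 Synpo+/+ ECL, 7 Synpo-/- control and 4 Synpo-/- ECL libraries of DG, and 2, 3, 6 and 6 libraries of CA3 in the same order. The other 24 came from an immunoprecipitation with an anti-synaptopodin antibody (coIP), in which RNA bound to the precipitate was sequenced beside the precleared lysate (input). Each coIP replicate pooled 6 whole cultures, with 5 replicates each of Synpo+/+ control and Synpo+/+ ECL and 2 of Synpo-/-, whose lesion state the labels do not give. Library depth ran from 14055930 to 46043990 assigned reads in the regional libraries and from 11601154 to 53682143 in the coIP experiment.

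Growth cones read guidance cues through a small number of ligand-receptor systems. Semaphorins signal mainly through plexins, the secreted class 3 semaphorins usually with a neuropilin as co-receptor. Ephrins are membrane-bound ligands of Eph receptor tyrosine kinases and can signal backward into their own cell. Slits repel through Robo receptors, and netrins attract through Dcc and repel through Unc5 receptors. In the hippocampus these systems are known for sorting afferents into layers, for guiding mossy fibres from granule cells of DG to CA3, and for shaping dendritic spines after development has ended. Their signals converge on small GTPases and the actin cytoskeleton.

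The labels were checked first. Prox1, a transcription factor of dentate granule cells, had at least 118 CPM (read counts scaled to library size) in 21 of the 22 libraries labelled DG and at most 44.6 CPM in every library labelled CA3. The exception was DG Synpo+/+ ECL replicate 5 with 15.7 CPM, and call counts that use that library are also given without it. CA3 Synpo-/- control replicate 1 held the 44.6 CPM, against at most 18.7 CPM in the other libraries of its group, and call counts that use it are likewise given without it. Synpo itself did not fall in Synpo-/- tissue, with 53.3 ± 8.87 CPM (SD, n = 7) in control DG against 21.97 ± 2.39 CPM (n = 4) in Synpo+/+. The deleted exons are not given in the sources used here, and counts summed over all exons therefore do not check the genotype labels.

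Receptors held the highest levels of the group. Compared per kilobase of exon over the 39 regional libraries, 41 of 70 members had a mean over 1 CPM per kb. Epha4, an Eph receptor that binds both ephrin classes, led at 52.3 CPM per kb with group means from 38.0 to 68.0. Epha7, another ephrin-A receptor, followed at 13.8 CPM per kb (group means 8.89 to 16.4) and Nrp1, the co-receptor of secreted semaphorins, at 13.2 CPM per kb (8.96 to 18.9). The ranges of Epha7 and Nrp1 overlapped, and Epha4 lay above both in all groups. Among ligands the highest levels were those of Efna1, a GPI-anchored ephrin, at 9.61 CPM per kb (6.27 to 11.8), Sema3e, a secreted semaphorin that binds Plxnd1, at 9.29 CPM per kb (4.56 to 16.2), and Efnb3, a transmembrane ephrin, at 6.02 CPM per kb (3.70 to 8.61). The ranges of these 3 ligands overlapped. At the low end Sema4c, Sema3f, Robo4 and Ntn5 had 0.10 to 0.13 CPM per kb each. Reads were counted without regard to strand, so levels of members whose exons overlap another gene are uncertain, which applies to 23.4% of the exon length of Ntn5, 14.1% of Efna3, 10.7% of Plxna1 and 10.5% of Efna4.

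**Figure D1:**
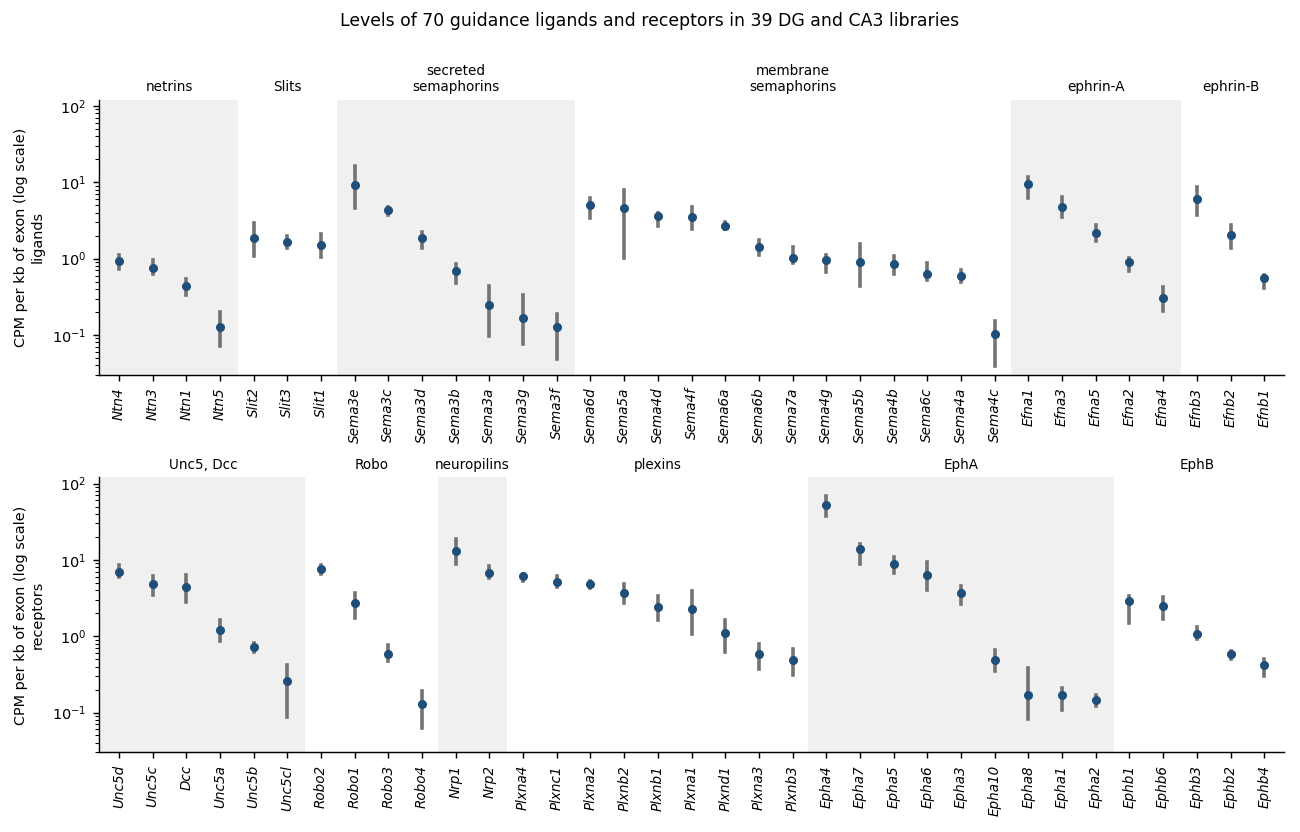
Mean level of each of the 70 members in CPM per kb of exon over the 39 regional libraries, on a log axis. Dots are means and bars span the 8 group means; Epha4 stands highest at 52.3 CPM per kb.

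Ligands and receptors both differed between DG and CA3. In control cultures Sema5a, a transmembrane semaphorin that carries thrombospondin repeats, was 5.83-fold higher in DG than in CA3 in Synpo-/- and 6.18-fold higher in Synpo+/+, whereas Sema3e and Slit2, a secreted semaphorin and a secreted repellent, were higher in CA3. Upstream sequences of Sema5a and Sema3e, the ligands that differed most in either direction, are shown here from RefSeq on GRCm38.p6. Each window holds 250 bases before and 50 after the transcription start, and capitals mark the GC box GGGCGG on either strand, the only one of 4 searched motifs found in these windows.
Sema5a, chr15:32244563-32244862, plus strand: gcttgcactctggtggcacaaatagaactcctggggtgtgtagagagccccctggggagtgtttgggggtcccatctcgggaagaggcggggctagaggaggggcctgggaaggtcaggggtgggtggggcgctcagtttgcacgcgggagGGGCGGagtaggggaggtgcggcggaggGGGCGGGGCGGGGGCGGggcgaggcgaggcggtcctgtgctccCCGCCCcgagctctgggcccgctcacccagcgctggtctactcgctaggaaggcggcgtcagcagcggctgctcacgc
Sema3e, chr5:14025026-14025325, plus strand: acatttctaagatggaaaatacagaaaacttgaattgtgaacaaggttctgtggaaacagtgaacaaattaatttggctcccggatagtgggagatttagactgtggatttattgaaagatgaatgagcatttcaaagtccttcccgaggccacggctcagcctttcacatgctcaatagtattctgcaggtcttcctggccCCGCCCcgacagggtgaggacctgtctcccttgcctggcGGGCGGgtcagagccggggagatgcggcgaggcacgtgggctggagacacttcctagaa
The Sema5a window held 5 GC boxes and 71.3% G or C, and the Sema3e window 2 boxes and 50.7%. Over all 32851 promoter windows of the table, 35.7% held at least 1 GC box, and 54 of the 76 windows of members did; 60 of the 70 members had a window.

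In Synpo-/- control cultures 68 members passed the filter on low counts, all but Efna4 and Ntn5. Of these, 12 were higher in DG, where 13.1% of all genes tested were higher, and 16 were higher in CA3, where 12.5% of all genes were. A call here and throughout is an adjusted p under 0.05 in the edgeR quasi-likelihood fit, with the Benjamini-Hochberg method applied over all genes tested. The median log2 difference of the members was 0.02, beside 0.05 for all genes. Ligands were called higher in DG 8 times and in CA3 7 times among 33, and receptors 4 and 9 times among 35. In Synpo+/+ control cultures, with only 2 CA3 libraries, 5 of 67 members were higher in DG (2.63% of all genes) and 8 in CA3 (2.75%). The 2 genotypes have no library in common, and 12 members were called in the same direction in both. This is 12 of the 13 called in Synpo+/+ and 12 of the 28 called in Synpo-/-. The share of all genes called alike in both was not counted, so 12 of 13 is not shown to be particular to the members. Each regional library is 1 culture, and the p-values measure the spread between such cultures.

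Sema5a in Synpo-/- control cultures ran from 124.5 through a median of 137.7 to 180.4 CPM in DG and from 19.7 through 21.8 to 49.5 CPM in CA3. In Synpo+/+ controls its 4 DG libraries had 106.3, 98.9, 146.7 and 123.7 CPM, and both CA3 libraries were far lower, at 21.3 and 17.03 CPM. The regions did not overlap in either genotype, and the highest CA3 value was that of CA3 Synpo-/- control replicate 1. The log2 difference, DG over CA3, was 2.54 (SE 0.176, edgeR adjusted p = 4.3e-09) in Synpo-/- and 2.63 (SE 0.192, edgeR adjusted p = 3.0e-06) in Synpo+/+. Without CA3 Synpo-/- control replicate 1 the Synpo-/- difference was 2.81. Its relative Sema5b was also higher in DG, by 1.27 in Synpo-/- and 1.08 in Synpo+/+ on the log2 scale.

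Sema3e went the other way. In Synpo-/- controls it ran from 30.2 through 49.2 to 53.0 CPM in DG and from 101 through 127.6 to 145.9 CPM in CA3. In Synpo+/+ the DG libraries had 35.4, 37.8, 47.8 and 58.7 CPM and the CA3 libraries 124.1 and 132.3 CPM. No DG library reached the lowest CA3 library, and the log2 differences were -1.42 (SE 0.116, edgeR adjusted p = 3.6e-08) and -1.51 (SE 0.177, edgeR adjusted p = 0.000157). Its known receptor Plxnd1 was called in the opposite direction in Synpo-/- controls, with 11.1 ± 1.63 CPM in DG (SD, n = 7) and 4.94 ± 0.975 CPM in CA3 (n = 6), a log2 difference of 1.21 (edgeR adjusted p = 1.5e-06). In Synpo+/+ controls Plxnd1 was not called, with 8.97 ± 2.22 CPM in DG (n = 4) and 4.59 ± 1.43 CPM in CA3 (n = 2). Nrp1 was higher in CA3 in both genotypes, by -0.87 and -0.79 as DG over CA3.

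Slit2 had 22.3 to 32.3 CPM in DG (median 28.4) and 49.7 to 77.9 CPM in CA3 (median 66.8) of Synpo-/- controls. In Synpo+/+ its DG libraries had 29.9, 33.0, 35.7 and 45.2 CPM against 76.4 and 64.1 CPM in CA3. The regions stood apart in both genotypes, with log2 differences of -1.15 (SE 0.112, edgeR adjusted p = 3.0e-07) and -0.97 (SE 0.170, edgeR adjusted p = 0.00343). Slit1 and the Slit receptor Robo1 were also higher in CA3 of Synpo-/- controls, by -0.71 and -0.84. Dcc, the attractive netrin receptor, was higher in CA3 in both genotypes (-1.08 and -0.78), as was Plxna1, a semaphorin receptor (-1.46 and -1.86).

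Of the 3 ephrin-B ligands, 2 were called higher in DG and 0 lower in Synpo-/- controls. Efnb3 ran from 19.6 through 23.9 to 29.9 CPM in DG and from 9.28 through 12.6 to 15.03 CPM in CA3, with no overlap and a log2 difference of 1.01 (SE 0.122, edgeR adjusted p = 4.4e-06). Efnb2, a ligand of EphB receptors, differed by 1.06. In Synpo+/+, Efnb3 differed by 0.78 (edgeR adjusted p = 0.0354), and its receptor Ephb1 by 0.87 (edgeR adjusted p = 0.0352). Among Eph receptors, Epha4 was higher in CA3 (-0.57 and -0.61) and so was Epha6 (-0.78 and -0.58), while the membrane semaphorin Sema6d was higher in DG (0.70 and 0.68). The GPI-anchored ligand Efna3 was higher in CA3 in both genotypes (-0.62 and -0.79).

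**Figure D2:**
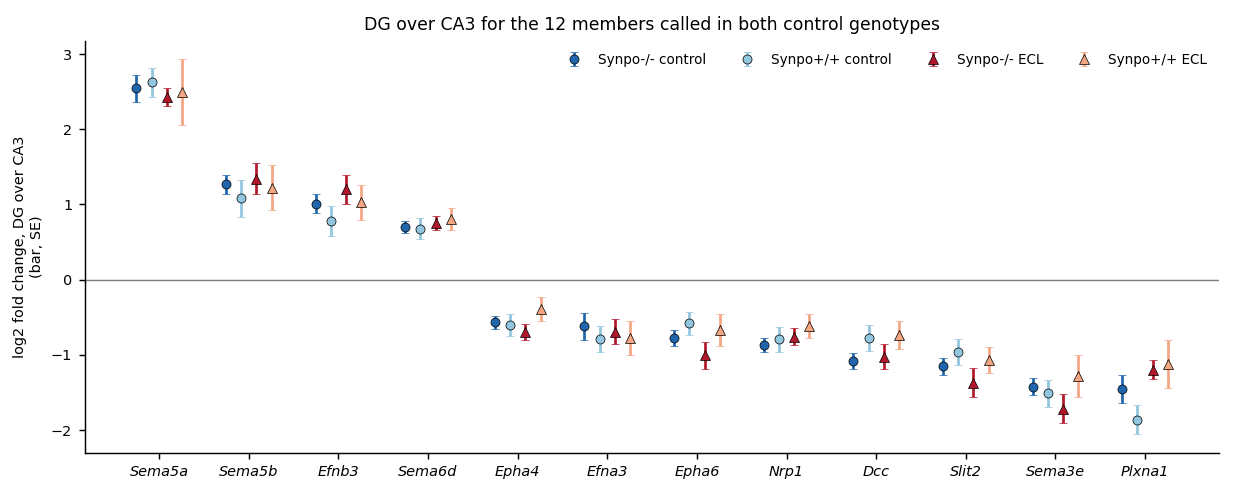
Log2 difference between DG and CA3, with its SE, for the 12 members called in the same direction in the control cultures of both genotypes, in the 4 region comparisons. Values above 0 are higher in DG, and Sema5a lies between 2.43 and 2.63 in all 4.

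Leaving out CA3 Synpo-/- control replicate 1 kept the Synpo-/- calls nearly whole, at 11 higher in DG (11.3% of all genes) and 16 in CA3 (10.4%), with Epha10 the call that was lost. The log2 differences were then -1.48 for Sema3e, -1.22 for Slit2, 0.97 for Efnb3, 1.29 for Plxnd1, -1.07 for Dcc and -1.49 for Plxna1. The Synpo+/+ calls rested on few libraries: without CA3 Synpo+/+ control replicate 1 there were 6 calls in all and without replicate 2 there were 7. The calls of Sema5a, Plxna1, Sema3e and Slit2 were kept whichever library was left out. For the other 9 the adjusted p rose to values between 0.0513 and 0.366 under at least 1 alternative. Leaving out a CA3 Synpo+/+ control library leaves 1 library there, which is then assumed to vary like the other group.

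The same ligands separated the regions after the lesion. In Synpo-/- ECL cultures 11 of 69 members were higher in DG (7.37% of all genes) and 13 in CA3 (6.24%), with Sema5a at 2.43, Efnb3 at 1.20, Sema3e at -1.71 and Slit2 at -1.37. In Synpo+/+ ECL cultures 5 of 69 were higher in DG (1.54%) and 2 in CA3 (0.508%). DG Synpo+/+ ECL replicate 5 had 23.2 CPM of Sema5a, 138.2 CPM of Sema3e, 56.6 CPM of Slit2 and 12.6 CPM of Efnb3. Without it 13 members were higher in DG (7.51%) and 17 in CA3 (12.3%), and Sema5a differed by 2.64, Sema3e by -1.64 and Slit2 by -1.24. Without CA3 Synpo+/+ ECL replicate 1, 2 or 3, edgeR called 0 members in Synpo+/+ ECL, with 4074, 3460 and 3106 of all genes at an unadjusted p under 0.05. The 4 region comparisons have no library in common. With every library in, Efnb3, Sema5a and Sema6d were called higher in DG in all 4, and Sema3e and Slit2 higher in CA3. Without DG Synpo+/+ ECL replicate 5 these became 4 members higher in DG, with Sema5b added, and 8 higher in CA3, with Dcc, Efna3, Epha4, Epha6, Nrp1 and Plxna1 added. In that setting 17 members were called higher in DG in at least 1 comparison and 19 higher in CA3 in at least 1. Members called in opposite directions numbered 0. The shares of all genes that recurred across the 4 comparisons were not counted.

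**Figure D3:**
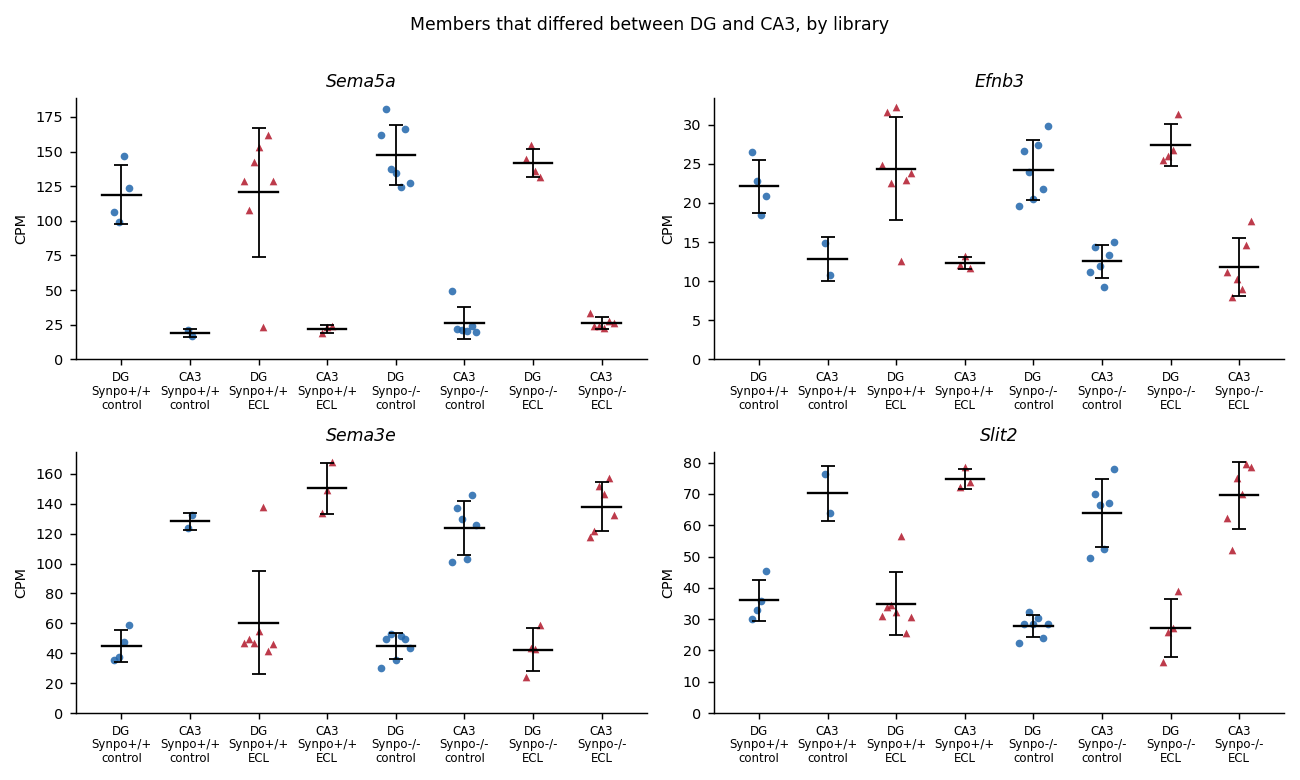
CPM of Sema5a, Efnb3, Sema3e and Slit2 in every regional library by group, circles for control and triangles for ECL, with the mean and SD. Within each genotype and treatment DG and CA3 are apart except for DG Synpo+/+ ECL replicate 5, at 23.2 CPM of Sema5a and 138.2 CPM of Sema3e.

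Cell type markers moved with region. In Synpo-/- controls all 5 granule cell markers were higher in DG, with summed levels of 276.4 to 476.1 CPM in DG and 40.3 to 128.7 CPM in CA3, and all 4 CA3 pyramidal cell markers were lower, with sums of 43.2 to 97.8 CPM and 201.2 to 261.2 CPM. All 7 oligodendrocyte markers were lower in DG, with sums of 485.8 to 1496 CPM against 1694 to 2741 CPM, as were 4 of 8 astrocyte, 2 of 6 endothelial and 1 of 10 microglial markers. Interneuron markers were higher in DG for 4 of 6 (sums of 882.7 to 1249 CPM against 573.7 to 851 CPM), and so were 2 of 3 CA1 pyramidal cell markers (17.6 to 26.6 CPM against 8.62 to 17.5 CPM) and 1 of 5 markers of fibroblasts and mural cells, with 0 of 2 for oligodendrocyte precursors. No marker of these lists was at 0 in all libraries of either group. Their part in the members' differences was not tested, and in bulk tissue fewer cells of a type and less RNA per cell cannot be told apart. On a fixed list of 56 other genes of guidance pathways, 14 were higher in DG and 15 in CA3 of Synpo-/- controls, and 6 and 5 in Synpo+/+. Those higher in DG in Synpo-/- controls included the Rac activator Tiam1 (2.38), the ephexin Ngef (1.45) and the chemokine Cxcl12 (1.46). Nell2, a Robo3 ligand, was higher in CA3 (-0.97).

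After the lesion, with every library in, the B-type plexins were the members called in DG of both genotypes. Without DG Synpo+/+ ECL replicate 5, Plxnb3 lost its Synpo+/+ call, and Epha3 was called lower in both genotypes. Plxnb1 and Plxnb2, receptors of class 4 semaphorins, and Plxnb3, a receptor of Sema5a, were higher after ECL in Synpo+/+ and in Synpo-/- dentate gyrus. Their upstream windows, from the same table, are shown because these 3 paralogues were all called higher. The window given for Plxnb2 is 1 of 2 listed for that gene, and capitals again mark GC boxes on either strand.
Plxnb1, chr9:109095186-109095485, plus strand: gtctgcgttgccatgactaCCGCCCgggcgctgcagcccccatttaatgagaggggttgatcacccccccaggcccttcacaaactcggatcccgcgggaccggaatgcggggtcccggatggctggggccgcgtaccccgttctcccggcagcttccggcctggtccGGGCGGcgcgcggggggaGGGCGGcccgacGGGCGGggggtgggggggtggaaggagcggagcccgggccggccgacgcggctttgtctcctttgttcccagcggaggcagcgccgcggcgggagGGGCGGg
Plxnb2, chr15:89180739-89181038, minus strand: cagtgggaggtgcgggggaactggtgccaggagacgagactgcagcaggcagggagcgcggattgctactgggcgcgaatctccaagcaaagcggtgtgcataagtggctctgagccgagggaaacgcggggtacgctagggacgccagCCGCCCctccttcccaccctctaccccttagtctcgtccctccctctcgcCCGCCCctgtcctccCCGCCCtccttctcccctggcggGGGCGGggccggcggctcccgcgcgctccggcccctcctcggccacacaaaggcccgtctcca
Plxnb3, chrX:73756853-73757152, plus strand: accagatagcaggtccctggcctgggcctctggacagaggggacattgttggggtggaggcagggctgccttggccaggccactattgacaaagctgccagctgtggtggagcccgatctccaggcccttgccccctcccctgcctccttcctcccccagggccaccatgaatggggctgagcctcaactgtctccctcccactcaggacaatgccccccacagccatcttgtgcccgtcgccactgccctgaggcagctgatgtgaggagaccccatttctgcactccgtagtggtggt
Plxnb1 held 5 GC boxes, Plxnb2 4 and Plxnb3 none, at 74.7%, 70.3% and 63.7% G or C. None of the 3 windows held an AP-1 site (TGANTCA, in 7.81% of all windows), a cyclic AMP response element (TGACGTCA, 1.79%) or an Egr site (GCGTGGGCG, 0.612%), each searched on both strands. Among all 76 windows of members these were found in 3, 1 and 2.

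In DG of Synpo+/+ cultures 68 members were tested, all but Ntn5 and Sema4c. After ECL 4 were higher, where 7.86% of all genes were, and 0 were lower, where 4.31% of all genes were; DESeq2 called 5 higher and 1 lower. Without DG Synpo+/+ ECL replicate 5 there were 3 higher (8.46% of all genes) and 1 lower (5.3%), with Plxnb1 at 0.64, Plxnb2 at 0.55 and Sema4d at 0.41 on the log2 scale. In Synpo-/- 69 were tested, all but Ntn5, with 4 higher (5.17% of all genes) and 3 lower (3.36%). These counts put the members near the shares of all genes. Without DG Synpo+/+ control replicate 3 or 4 there were 2 calls in Synpo+/+, and without DG Synpo-/- ECL replicate 1 or 3 there were 3 or 4 in Synpo-/-. The genotypes have no library in common. Of the members called, the 3 plexins made up 3 of 4 in Synpo+/+ and 3 of 7 in Synpo-/-. The share of all genes called alike in both genotypes was not counted.

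Plxnb1 had 16.6, 15.6, 15.9 and 15.1 CPM in the 4 Synpo+/+ control libraries of DG, and from 22.7 through a median of 26.1 to 29.0 CPM after ECL. In Synpo-/- it ran from 16.1 through 20.1 to 22.04 CPM in controls and had 41.3, 30.7, 28.7 and 26.6 CPM after ECL. All lesioned libraries lay above all controls in both genotypes. The log2 differences were 0.63 (SE 0.110, edgeR adjusted p = 0.00276) and 0.71 (SE 0.128, edgeR adjusted p = 0.0027). Plxnb1 kept its call under all 11 alternatives in Synpo+/+ and all 10 in Synpo-/-.

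Plxnb2 had 22.3, 22.9, 18.5 and 21.4 CPM in Synpo+/+ controls and from 29.6 through 31.1 to 41.4 CPM after ECL, again without overlap (log2 difference 0.55, SE 0.119, edgeR adjusted p = 0.0105). In Synpo-/- controls it ran from 21.97 through 25.5 to 35.5 CPM, and the lesioned libraries had 41.1, 36.1, 37.1 and 34.7 CPM, so that 1 control reached into the lesioned range (0.47, SE 0.119, edgeR adjusted p = 0.0209). Among the fits that leave out 1 library, the call was lost without DG Synpo+/+ control replicate 3 (0.47, edgeR adjusted p = 0.058) and without DG Synpo-/- ECL replicate 1 (0.40, edgeR adjusted p = 0.0919).

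Plxnb3 was low, at 1.61, 2.98, 1.47 and 1.96 CPM in Synpo+/+ controls and 2.41 to 4.47 CPM after ECL (median 3.79), with overlap. The Synpo-/- controls ran from 1.22 through 2.32 to 3.64 CPM, and the lesioned libraries had 6.46, 2.82, 4.95 and 3.56 CPM, also with overlap. Log2 differences were 0.80 (SE 0.240, edgeR adjusted p = 0.0417) and 0.91 (SE 0.265, edgeR adjusted p = 0.0428). This call was lost without DG Synpo+/+ control replicate 1, 3 or 4 (edgeR adjusted p 0.0958, 0.135 and 0.120), without DG Synpo+/+ ECL replicate 5 (0.0551), and without DG Synpo-/- ECL replicate 1 (0.203) or 3 (0.109). It was also lost in Synpo+/+ with the length trend removed (0.68, edgeR adjusted p = 0.0816).

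Among semaphorins, Sema4d, the ligand of Plxnb1, was called in Synpo+/+ DG. Its controls had 23.4, 18.9, 23.2 and 21.4 CPM, and the lesioned libraries ran from 29.0 through 29.9 to 34.0 CPM, without overlap (log2 difference 0.42, SE 0.0967, edgeR adjusted p = 0.0137). Without DG Synpo+/+ control replicate 2 or 4 the adjusted p was 0.054 or 0.0546 (edgeR). In Synpo-/- Sema4d differed by 0.19 (edgeR adjusted p = 0.396), and the difference between genotypes was -0.28 with an adjusted p of 0.485 in the edgeR interaction fit, or 0.600 without DG Synpo+/+ ECL replicate 5. Sema3d, a secreted semaphorin, was called higher in Synpo-/- (0.50, edgeR adjusted p = 0.0447), with controls from 8.41 to 15.9 CPM and lesioned libraries at 16.5, 16.4, 15.6 and 17.7 CPM, and it differed by 0.26 in Synpo+/+ (edgeR adjusted p = 0.207). Its call was lost whichever of the 4 lesioned libraries was left out (edgeR adjusted p 0.0629 to 0.11), and with RLE size factors (0.0565).

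In Synpo-/- DG 3 of 69 members were called lower, beside 3.36% of all genes. These were Epha5, Epha3 and Efna5, and no other EphA receptor or ephrin-A gene was called there. Epha5, a receptor of ephrin-A ligands, ran from 151.7 through 170.2 to 197.2 CPM in controls and had 125.1, 124.2, 132.3 and 116.5 CPM after ECL, without overlap (-0.44, SE 0.0885, edgeR adjusted p = 0.00537). Epha3, of the same receptor class, ran from 26.9 to 38.2 CPM in controls and had 17.8, 24.3, 27.1 and 22.8 CPM after ECL (-0.50, SE 0.115, edgeR adjusted p = 0.0120). Efna5, a GPI-anchored ligand of both, ran from 8.12 to 14.5 CPM in controls and had 7.69, 7.48, 7.45 and 8.23 CPM after ECL (-0.54, SE 0.151, edgeR adjusted p = 0.0338). The groups overlapped for Epha3 and Efna5, each through 1 lesioned library. In Synpo+/+ the 3 genes differed by -0.23, -0.30 and -0.28, with edgeR adjusted p of 0.286, 0.154 and 0.200. The Efna5 call was lost whichever lesioned library was left out (edgeR adjusted p 0.0703 to 0.116), and that of Epha3 without DG Synpo-/- ECL replicate 1 (0.0541). With all 39 regional libraries in 1 fit the calls of Epha5 (-0.40, edgeR adjusted p = 0.206), Epha3 (0.127) and Efna5 (0.109) were all lost. Without DG Synpo+/+ ECL replicate 5, Epha3 was called lower in Synpo+/+ as well (-0.39, edgeR adjusted p = 0.0413).

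**Figure D4:**
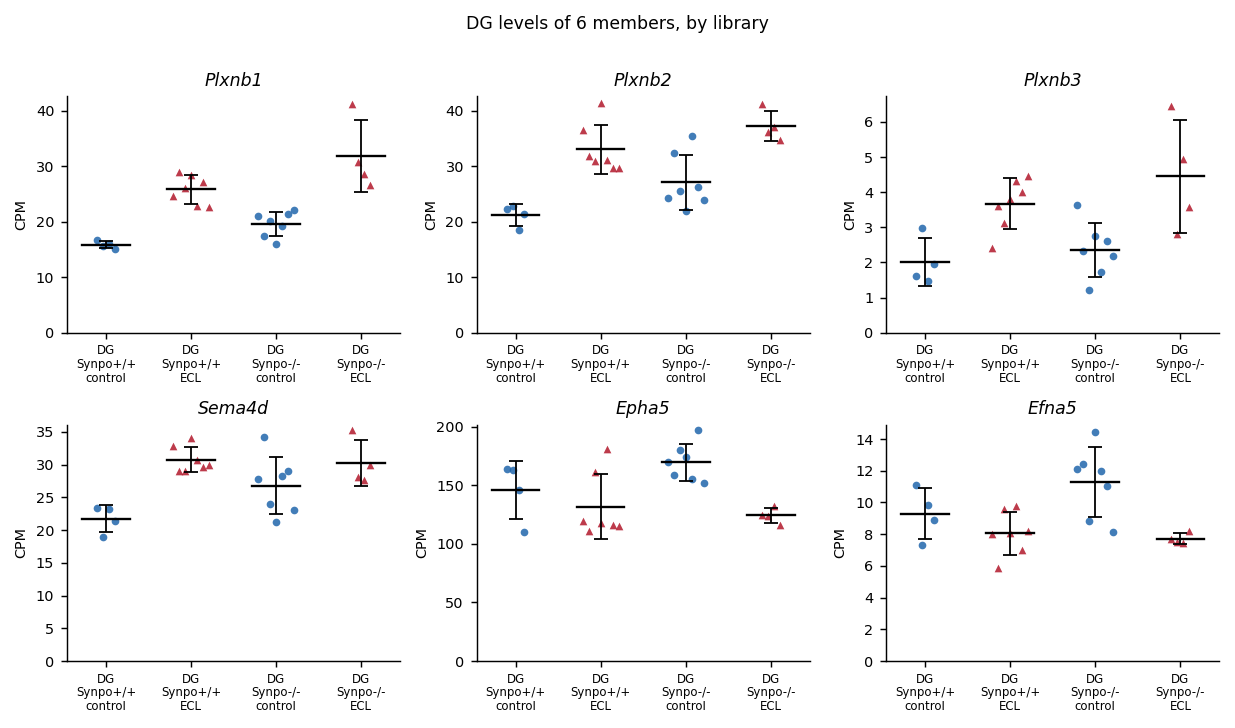
CPM of Plxnb1, Plxnb2, Plxnb3, Sema4d, Epha5 and Efna5 in every DG library of the 4 groups, circles for control and triangles for ECL, with the mean and SD. Plxnb1 after ECL starts at 22.7 CPM in Synpo+/+ and 26.6 CPM in Synpo-/-, above every control of the same genotype.

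Glial markers moved with the lesion in the same libraries. All 10 microglial markers were higher after ECL in Synpo+/+ DG (sums of 388.1 to 558.8 CPM in controls and 1048 to 1349 CPM after ECL) and 8 of 10 in Synpo-/- (490.3 to 1190 CPM and 1082 to 1457 CPM). Of 8 astrocyte markers 6 and 7 were higher, with sums of 4170 to 5210 CPM rising to 7077 to 9332 CPM in Synpo+/+ and 4732 to 5924 CPM rising to 7424 to 9166 CPM in Synpo-/-. Of 7 oligodendrocyte markers 1 was higher in each genotype. In Synpo+/+ 1 of 2 oligodendrocyte precursor markers was higher (sums of 20.6 to 27.3 CPM and 29.4 to 41.4 CPM) and 2 of 6 endothelial markers were lower (15.8 to 22.8 CPM and 11.01 to 15.1 CPM), and in Synpo-/- 1 of 6 interneuron markers was lower. Without DG Synpo+/+ ECL replicate 5, 10 microglial, 7 astrocyte, 2 oligodendrocyte and 2 of 5 granule cell markers were higher. No marker of these lists was at 0 throughout a group, and their part in the members' changes was not tested. Of the 56 pathway genes, 2 were higher in each genotype, the GTPase Rhoa (0.70 and 0.46) and the kinase Fes (0.81 and 0.92), and 3 were lower in Synpo-/-, the Rac activator Tiam1 (-0.54), the kinase Rock2 (-0.30) and the Rac effector kinase Pak1 (-0.37). With the trend on gene length removed, the median of all genes in Synpo+/+ DG shifted by -0.14 and the split of all calls went from 1864 higher and 1022 lower to 842 and 1484, and 3 members were then higher and 1 lower.

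No member was called after the lesion outside DG. In CA3 of Synpo+/+ cultures edgeR called 0 of 67 (1.5% of all genes higher, 0.273% lower), with 11 members at an unadjusted p under 0.05, and DESeq2 called 1. In CA3 of Synpo-/- edgeR called 0 of 68 (0.053% and 0.0241%), with 2 at an unadjusted p under 0.05, and DESeq2 called 0; without CA3 Synpo-/- control replicate 1 edgeR called 0 of 69, with 4. In the input lysates of whole Synpo+/+ cultures edgeR called 0 of 60 (2.45% and 3.16%), with 4 at an unadjusted p under 0.05, and DESeq2 called 0. Among all genes tested, an unadjusted p under 0.05 (edgeR) was held by 5348 of 22340 in Synpo+/+ CA3. In Synpo-/- CA3 it was 1510 of 20772, and in input 3493 of 17951. The largest shifts in Synpo+/+ CA3 were in low genes: Epha8, an ephrin-A receptor, had 2.45 and 1.12 CPM in controls and 0.310, 0.355 and 0.505 CPM after ECL (-2.31, edgeR adjusted p = 0.061). Plxnb1 differed by 0.24 in CA3 of Synpo+/+ (edgeR adjusted p = 0.320), by -0.12 in CA3 of Synpo-/- (0.837) and by 0.26 in input (0.464).

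Genotype made no called difference to any member. In control DG edgeR called 0 of 67 (0.0124% of all genes higher in Synpo-/-, 0.00414% lower), with 4 members at an unadjusted p under 0.05, and DESeq2 called 0. The smallest p was that of Slit2, lower in Synpo-/- by -0.48 on the log2 scale (edgeR adjusted p = 0.207). In control CA3 edgeR called 0 of 69 (0.00413% and 0%), with 12 at an unadjusted p under 0.05, and DESeq2 called 3. The smallest there was that of Ephb1 (1.08, edgeR adjusted p = 0.109). Without CA3 Synpo-/- control replicate 1 edgeR again called 0 of 69, with 11 at an unadjusted p under 0.05, and Ephb1 had 0.88 (edgeR adjusted p = 0.126). The interaction of genotype with lesion called 0 of 70 members in DG (0.00381% of all genes) and 0 of 69 in CA3 (0%), with 3 and 9 members at an unadjusted p under 0.05, and DESeq2 called 0 and 3. For genotype in control DG, 3746 of all 24143 genes had an unadjusted p under 0.05 (edgeR), and 3959 of 24203 in control CA3. For the interactions it was 2730 of 26245 in DG and 4589 of 26821 in CA3. Without DG Synpo+/+ ECL replicate 5 the DG interaction called 0 with 3 at an unadjusted p under 0.05, and without CA3 Synpo-/- control replicate 1 the CA3 interaction called 0 with 9. The lesion calls made in 1 genotype only are therefore not shown to differ between genotypes.

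Most members were higher in the precipitate than in the lysate. Against input, 52 of 62 tested members were higher in the Synpo+/+ control coIP, where 29.6% of all genes were, and 1 was lower, where 25.5% were. In Synpo+/+ ECL the counts were 52 higher (30.5% of all genes) and 1 lower (27.8%), of 62. In Synpo-/-, with 2 replicates, 36 of 67 were higher (15%) and 0 lower (16.4%), and without input Synpo-/- replicate 2 there were 15 calls. The members' median log2 differences were 0.82, 0.87 and 0.59, beside 0.04, 0.02 and 0.02 for all genes. The 3 comparisons have no library in common, and 50 members were higher in both Synpo+/+ coIPs and 34 in all 3. The shares of all genes that recurred in this way were not counted, so these counts do not set the members apart.

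Most families were higher in the precipitate. In the Synpo+/+ control coIP all 5 EphB receptors were higher (median log2 difference 1.17), as were all 9 plexins (1.13), all 3 Slits (1.17), all 5 tested genes of the Unc5 and Dcc set (0.68), all 3 tested Robo receptors (0.83), both neuropilins (0.60) and all 3 ephrin-B genes (0.53). Of the membrane semaphorins 11 of 12 tested were higher (0.87), of the EphA receptors 5 of 7 (0.66), of the secreted semaphorins 4 of 6 (0.60) and of the netrins 2 of 3 (0.90). Ephrin-A genes formed the exception, with 0 of 4 higher and a median of -0.08. The 4 tested, Efna1, Efna2, Efna3 and Efna5, are short, with 1830, 2131, 2434 and 4032 bases of exon. The median of tested members was 7110 bases.

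Ephb2, a receptor of ephrin-B ligands at excitatory synapses, had 7.33, 7.39, 8.32, 6.62 and 8.996 CPM in the 5 Synpo+/+ control inputs and 14.8, 16.0, 16.5, 16.8 and 20.2 CPM in the coIPs. Every coIP lay above every input, with a log2 difference of 1.17 (SE 0.127, edgeR adjusted p = 3.4e-06). In Synpo-/- the inputs had 7.47 and 8.65 CPM and the coIPs 16.8 and 14.6 CPM, which was 0.99 (edgeR adjusted p = 0.00248). Plxna2, a receptor of class 6 semaphorins, had 133.9, 131.3, 129.9, 133.2 and 138.5 CPM in input and 201.6, 198.1, 227.2, 208.0 and 226.6 CPM in coIP of Synpo+/+ controls (0.72, SE 0.0762, edgeR adjusted p = 2.9e-06). The Plxna2 groups did not overlap, and in Synpo-/- the difference was 0.34 (edgeR adjusted p = 0.0722). Plxnb1 differed by 1.24 in Synpo+/+ control, 1.14 in Synpo+/+ ECL and 0.87 in Synpo-/-, and Slit2 by 0.86, 0.87 and 0.72. Others with the smallest p in Synpo+/+ controls were Plxna4 (0.90), Plxnd1 (1.11), Sema6b (1.22) and Epha5 (0.66).

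Efna1 was the member called lower. Its Synpo+/+ control inputs had 18.8, 17.4, 17.3, 18.1 and 19.1 CPM, and the coIPs had 11.8, 12.1, 14.5, 18.1 and 14.8 CPM. The groups overlapped through 1 coIP library (-0.30, SE 0.122, edgeR adjusted p = 0.047). After ECL the difference was -0.49 without overlap (edgeR adjusted p = 0.00238), and in Synpo-/- it was -0.11 (edgeR adjusted p = 0.688). The Synpo+/+ control call was lost under 13 of 18 alternatives, 9 of which leave out 1 library (edgeR adjusted p 0.0557 to 0.956). With the length trend removed the sign turned, to 0.20 in Synpo+/+ control and 0.11 in Synpo+/+ ECL. The most abundant member, Epha4, had 0.43 in Synpo+/+ control (edgeR adjusted p = 0.0132) and 0.16 in Synpo-/- (0.414), and Epha7 had 0.13 in Synpo+/+ control (0.382).

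**Figure D5:**
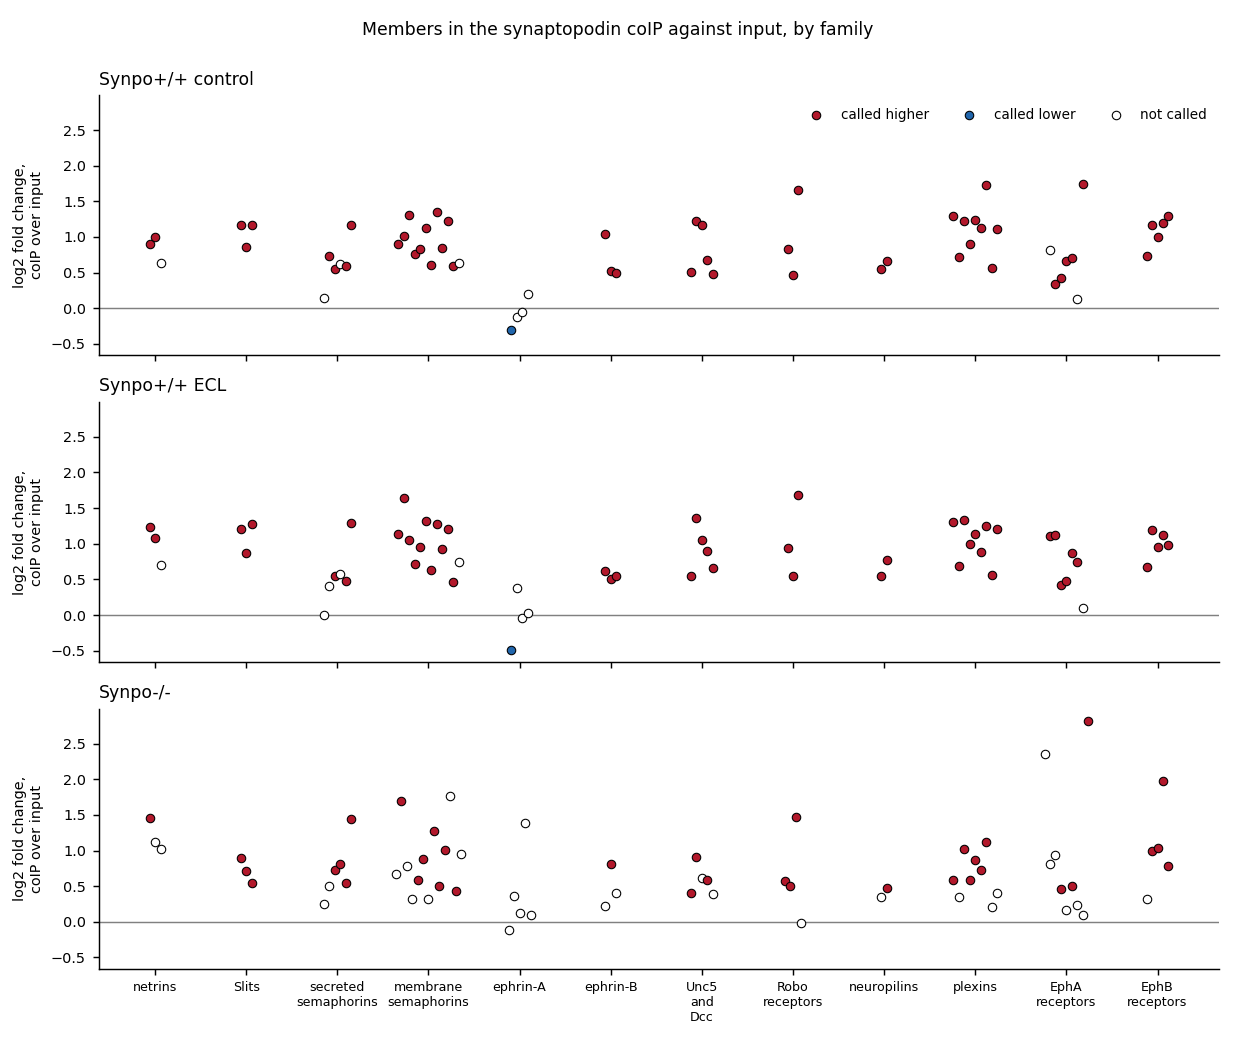
Log2 difference between coIP and input for every tested member by family in 3 comparisons, red for called higher, blue for called lower and white for not called. Plexins, EphB receptors and Slits are all red in the Synpo+/+ control coIP, and the ephrin-A genes lie around 0.

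Transcript length moved with these differences over all genes. Base composition was corrected for in some fits, but its own correlation with the differences was not computed. Tested members were longer than genes at large, with a median exon length of 7110 bases against 3851. Spearman's correlation of length with the Synpo+/+ control difference was 0.288 over 18222 genes and -0.166 over the 62 members, all of which share the same libraries. With length and GC trends removed, 37 members were higher in Synpo+/+ control (28% of all genes), 34 in Synpo+/+ ECL (29.2%) and 15 in Synpo-/- (13.9%), with medians of 0.44, 0.43 and 0.40 beside 0.10, 0.10 and 0.06 for all genes. Ephb2 then had 0.54 (edgeR adjusted p = 0.00136) and Plxnb1 0.55 (edgeR adjusted p = 0.00624) in Synpo+/+ control. With the length trend alone removed, the calls of Plxna2 (0.14, edgeR adjusted p = 0.0967) and Epha5 (edgeR adjusted p = 0.348) were lost in Synpo+/+ control, and that of Slit2 in Synpo-/- (0.21, edgeR adjusted p = 0.325). With length and GC removed Slit2 had 0.36 in Synpo+/+ control (edgeR adjusted p = 0.0143), 0.31 in Synpo+/+ ECL (0.0562) and 0.23 in Synpo-/- (0.240).

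The Synpo-/- coIP gives the RNA that came down without wild-type synaptopodin, and members higher in Synpo+/+ were set against it. The Synpo-/- coIP and input libraries held 42886994 to 53682143 assigned reads, against 11601154 to 29014397 in the Synpo+/+ ones. Genotype and depth therefore cannot be told apart in this comparison. Subtracting the log2 difference in Synpo-/- from that in the Synpo+/+ control left 12 of 52 members over a 1.3-fold excess, or 23.1%, beside 25.2% of all genes so treated. The 12 were Efnb1, Epha6, Ephb1, Ephb6, Plxna1, Plxnb2, Plxnb3, Plxnd1, Sema4c, Sema4d, Slit3 and Unc5b, of which Efnb1, a transmembrane ephrin, had an excess of 0.82 and Plxnd1 one of 0.71 on the log2 scale. Efnb1 had 3.51, 3.88, 3.10, 3.74 and 3.30 CPM in input and 7.00, 6.33, 8.44, 6.25 and 6.99 CPM in coIP of Synpo+/+ controls, and 4.01 and 4.19 CPM against 3.89 and 5.46 CPM in Synpo-/-. The Synpo+/+ groups stood apart and the Synpo-/- groups overlapped. The interaction of genotype with fraction, which tests this excess and uses the Synpo+/+ control and Synpo-/- libraries, called 0 of 66 members (0% of all genes), with 4 members at an unadjusted p under 0.05, and DESeq2 called 0. Of all 20621 genes tested, 1511 had an unadjusted p under 0.05 (edgeR). The smallest adjusted p of a member was 0.555, for Plxnd1 (edgeR). On the pathway list 34 of 53 genes were higher and 7 lower in the Synpo+/+ control coIP, 33 and 7 in Synpo+/+ ECL and 19 and 5 of 56 in Synpo-/-. The 7 lower in Synpo+/+ control were the GTPases Cdc42 (-1.13), Rac1, Rhoa and Rnd1, the kinases Pak1 and Cdk5, and the adaptor Nck1. Cell type markers moved with the Synpo+/+ control coIP too. CA1 pyramidal cell markers were higher for 2 of 3 (sums of 38.2 to 58.03 CPM in input and 58.7 to 95.8 CPM in coIP), as were 2 of 4 tested endothelial markers (6.495 to 7.51 CPM and 10.7 to 13.2 CPM), 1 of 2 oligodendrocyte precursor, 3 of 8 astrocyte and 2 of 4 CA3 pyramidal cell markers. Microglial markers were lower for 4 of 10 and higher for 1 (821.2 to 1245 CPM and 590.9 to 961.8 CPM), interneuron markers lower for 3 of 6 and higher for 1 (1083 to 2252 CPM and 712.2 to 1552 CPM), granule cell markers lower for 2 of 5, fibroblast and mural cell markers higher for 2 and lower for 1 of 5, and oligodendrocyte markers called for 0 of 7 by edgeR, with 1 at an unadjusted p under 0.05. Their part in the members' differences was not tested.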

How the data were processed

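RNA was measured in 63 libraries. Per the labels and the study's methods, the authors made them with a low-input NEBNext kit, sequenced paired ends on a NovaSeq6000, trimmed with cutadapt 3.5, aligned to GRCm38 with STAR 2.7.8a and counted reads per GENCODE M25 gene with featureCounts 2.0.1 (versions from the submitters' processing notes), keeping samples with over 60% uniquely mapped reads. The deposited values are raw read counts without strand for 55291 gene symbols, and their depth limits low genes most. PCR copies cannot be told from molecules.

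Counts were tested with edgeR 4.0.16 in R 4.3.3 (TMM scaling, filterByExpr, quasi-likelihood test) on the groups of each comparison alone, with Benjamini-Hochberg adjustment over all genes tested and calls at an adjusted p under 0.05. CPM values use TMM factors fitted over all genes and all 39 regional or all 24 coIP-experiment libraries. They therefore need not match the log2 differences exactly, whose factors come from the compared groups alone. Nothing in the labels ties regional libraries of equal number to 1 animal. The coIP and input of a number come from the same lysate, with correlations of their deviations between 0.189 and 0.442 in Synpo+/+ control, between 0.105 and 0.381 in Synpo+/+ ECL, and of 0.0456 in Synpo-/-. In Synpo-/- the titles give each library both an SPko number and a replicate number, which disagree in the inputs; pairs and names follow the SPko number. All 130 pairs of libraries within groups differed by more than counting noise. Members, the pathway list of 56 genes and the marker lists of granule cells, CA3 and CA1 pyramidal cells, interneurons, oligodendrocytes and their precursors, astrocytes, microglia, endothelium, and fibroblasts and mural cells were chosen with earlier results of these data known. Genes were named if among up to 6 members with the smallest p in each direction of a comparison, if called alike in both genotypes, or if among the 3 highest ligands or receptors, and any member could be named for its level. Efna3 and Dcc were among those called alike. Some members given by value beside these, such as Slit1 between regions, fell outside these rules.

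Alternatives were DESeq2 1.42.0, RLE factors, no filter on low counts and a mean normalised count over 300. Others were trends on length and GC removed by lowess (span 0.3), the replicate block, and all 39 regional libraries in 1 fit. In further fits 1 library was left out, in turn for each library of groups of up to 5, and for DG Synpo+/+ ECL replicate 5. Other libraries of the groups of 6 and 7 were always kept, except CA3 Synpo-/- control replicate 1. The fits without CA3 Synpo-/- control replicate 1, and the length and GC correction with the block, were added after seeing the data. On simulated counts 200 genes were changed 4-fold, with 17653 to 25343 genes tested in the 17 edgeR fits. These fits called 99 to 195 of the changed genes and at most 15 unchanged ones. The 4 fits with DESeq2, length and GC trends removed or the replicate block called 178 to 189 and at most 37 unchanged genes. Promoter windows and motifs were read from RefSeq (GRCm38.p6).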

Additional observations from a re-analysis of the deposited data

Results flagged for a closer look

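The highest or lowest library of a group was checked against the others for the named members, over 50 groups of 4 to 10 libraries, and 2 stood apart, where chance gives about 1 in 20. Sema5a had 49.5 CPM in CA3 Synpo-/- control replicate 1, against 19.7 to 24.1 CPM in the other 5 libraries of that group, and the same library had 44.6 CPM of Prox1, against 15.4 to 18.7 CPM. Plxnd1 had 14.4 CPM in DG Synpo-/- control replicate 5, against 9.26 to 11.4 CPM in the other 6.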

How the results depend on the processing

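The number of members called took these values under the alternatives that moved it. For most settings the share of all genes called is not given beside it. These counts therefore do not show whether members moved more than other genes. Ranges from leaving out 1 library cover only the libraries that were left out, which excludes most of those in groups of 6 and 7. For the lesion in DG, leaving out 1 library gave 2 to 4 calls in Synpo+/+ (4 as reported) and 3 to 6 in Synpo-/- (7 as reported), where the replicate block gave 1 and all 39 libraries in 1 fit gave 4. For the lesion in Synpo+/+ CA3 (0 as reported), DESeq2 gave 1, no filter on low counts 4, the replicate block 1, and leaving out 1 library 0 to 1. For input (0), length and GC correction gave 2 and leaving out 1 library 0 to 1. Between regions, a mean normalised count over 300 left 17 of 28 calls in Synpo-/- controls. In Synpo+/+ controls (13) the replicate block gave 8 and leaving out 1 library 6 to 14. In Synpo+/+ ECL (7) DESeq2 gave 14, no filter 13, the replicate block 29, all 39 libraries in 1 fit 17, and leaving out 1 library 0 to 30. In Synpo-/- ECL (24) leaving out 1 library gave 21 to 23. For genotype in CA3 (0) DESeq2 gave 3, no filter 3 and the replicate block 9, and the CA3 interaction (0) had 3 calls with DESeq2. In the coIP, a mean over 300 left 29 and 27 of 53 in Synpo+/+ control and ECL, length and GC correction left 34 in ECL, and in Synpo-/- (36) length correction left 21, length and GC correction 15, and the same with the replicate block 19. Leaving out 1 library gave 50 to 53, 51 to 54 and 15 to 40 calls, the 15 without input Synpo-/- replicate 2. Efna1 in the coIP reversed with length corrected, to 0.20 and 0.11. The replicate block alone gave 54 higher and 1 lower, 52 and 1, and 40 and 0 in the 3 coIP comparisons. Same-numbered regional libraries share only a number, with correlations from -0.224 to 0.54. The causes were not tested.

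Over 78 named values the alternatives gave 776 values of the same direction and call, 111 of the same direction that lost the call, and 2 that reversed. Groups of 2 and 3 CA3 libraries and counts near 1 CPM limit what these data detect.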
